A study of Mus musculus with 2 samples.

Results

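Hypoxia and HIF target genes were examined as a set of 10: Hif1a, Adm, Vegfa, Slc2a1, Ldha, Pdk1, Bnip3, Ddit4, Egln3 and Ankrd37, of 18206 genes that could be named on the array. Every non-control probe whose RefSeq accession belongs to one of them was taken, and all 10 genes were measured on both arrays. The tissue was peeled mouse epidermis on 2 one-colour arrays, 1 per genotype, so differences have no replicate check and no p-value was computed. The knockout array held RNA of Nfkbiz flox/flox; K5-cre epidermis, where Cre under the keratin 5 promoter, active in basal keratinocytes, is designed to delete the gene of the nuclear IκB protein IκBζ. The control array held RNA of Nfkbiz flox/flox epidermis without the transgene, so both genotypes carry the floxed allele and the control carries no Cre. Both are labelled steady state. Age, sex and the number of mice behind each RNA are not given in the sources used here, and melanocytes, Langerhans cells and T cells of the epidermis are not cells where that promoter is known to be active.

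Hypoxia-inducible factors (HIFs) are heterodimers of an oxygen-labile α subunit, such as HIF-1α, and the stable partner ARNT. In oxygen the EGLN prolyl hydroxylases mark the α subunit for the VHL ubiquitin ligase and degradation. When oxygen is low the α subunit persists, enters the nucleus and binds short elements with the core ACGTG or GCGTG near genes for glucose uptake, glycolysis, mitochondrial restraint and blood vessel growth. The step that oxygen controls is protein stability, so the Hif1a transcript does not measure HIF activity. Epidermis has no vessels of its own and is known as a mildly hypoxic tissue.

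The 10 genes did not differ in 1 direction. Ankrd37 and Vegfa had higher signals on the knockout array, 5.29-fold and 3.26-fold, and Adm and Hif1a had lower ones, 3.52-fold and 2.58-fold. The other 6, which include the glycolytic and mitochondrial members, lay within 2-fold. Across the 12408 genes with a measurement on each array, 3.02% were 2-fold or more higher and 4.40% 2-fold or more lower, or 7.42% in either direction, against 2 and 2 of the 10 members. With so few members these counts are a description. Folds are ratios of signals after each array was divided by its 75th percentile, and the value after ± is a standard error on the log2 scale, taken from the error model of the scanner software, which holds technical error and no variation between mice.

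The promoter windows of the 4 genes past 2-fold are shown with the HIF core motifs ACGTG and GCGTG, on either strand, in capitals. Each line gives the 250 bases before an annotated transcript start, 5′ to 3′ on the gene's strand, from RefSeq on GRCm38.p6. The Vegfa and Adm windows end at the outer edge of the gene, while those of Hif1a and Ankrd37 lie inside the widest RefSeq span of the gene, before internal starts.
Ankrd37, chr8:45999851-46000100, minus strand: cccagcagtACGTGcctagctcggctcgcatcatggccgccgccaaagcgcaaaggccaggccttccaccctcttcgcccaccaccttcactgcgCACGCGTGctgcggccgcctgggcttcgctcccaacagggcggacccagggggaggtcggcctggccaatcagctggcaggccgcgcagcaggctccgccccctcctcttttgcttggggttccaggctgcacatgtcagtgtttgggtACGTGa
Vegfa, chr17:46032378-46032627, minus strand: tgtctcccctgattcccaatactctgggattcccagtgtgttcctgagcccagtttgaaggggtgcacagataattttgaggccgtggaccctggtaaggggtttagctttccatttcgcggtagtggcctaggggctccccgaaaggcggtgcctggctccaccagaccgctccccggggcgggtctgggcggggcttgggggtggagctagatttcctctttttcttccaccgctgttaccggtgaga
Adm, chr7:110627407-110627656, plus strand: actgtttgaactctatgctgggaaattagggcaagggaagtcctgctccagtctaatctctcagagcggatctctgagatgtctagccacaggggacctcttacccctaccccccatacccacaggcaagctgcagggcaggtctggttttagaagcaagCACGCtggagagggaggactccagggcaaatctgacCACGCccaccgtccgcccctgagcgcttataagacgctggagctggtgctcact
Hif1a, chr12:73907617-73907866, plus strand: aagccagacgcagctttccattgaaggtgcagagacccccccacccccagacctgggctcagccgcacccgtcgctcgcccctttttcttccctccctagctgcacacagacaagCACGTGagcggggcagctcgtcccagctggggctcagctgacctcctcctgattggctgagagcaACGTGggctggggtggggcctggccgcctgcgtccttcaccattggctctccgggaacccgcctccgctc

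The Ankrd37 window held 4 matches, of which a CACGCGTG run gave 1 on each strand. The Adm window held 2, both GCGTG on the opposite strand. The Hif1a window held 3, but a CACGTG run, which is also the E-box bound by other factors, was counted on both strands. The Vegfa window held none, which says only that these letters are absent from this window. A further Vegfa window, also at an internal start, held 2. The windows with most matches, 5 each, belonged to Ldha and Bnip3, whose signals were nearly alike on the 2 arrays. Those counts also hold CACGTG runs counted on both strands, 2 runs in the Ldha window and 1 in the Bnip3 window. All 10 genes had a match in at least 1 window, and 11 of their 13 windows held one (84.6%), against 38.6% of 32851 RefSeq windows of the same length. The members were chosen as hypoxia and HIF target genes, so a higher share of HIF motifs goes with that choice and says nothing about these arrays. Median GC content was 64% in the members' windows and 52.4% in all windows, and its part in the motif count was not tested. A match is a description of sequence and not a binding site shown by these data.

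Nfkbiz was read by 1 probe that could be named, with a signal of 1760 on the knockout array against 3100 on the control array (2.05-fold lower). The difference of -1.04 ± 0.20 lay within its technical error of the 2-fold line. Median scaling moves every difference up by the same amount, and under it this one is less than 2-fold. Where the probe lies is not given in the files, and a probe outside the deleted exons would check nothing. Keratinocyte genes, the check on the labelled tissue, were all 10 measured and all within 2-fold, with unscaled signals of 54400 and 52200 for Krt5 and 80200 and 76900 for Krt10 on the knockout and control arrays. After scaling all 10 were lower, from -0.98 for the integrin gene Itga6 to -0.07, with a median of -0.20 that was 0.12 under median scaling. The scaling divisor, the 75th percentile, came to 239 for the knockout array and 205 for the control array, and 56.3% and 56.2% of their probes were well above background. All 4 measured red blood cell genes were 2-fold or more lower, or 3 of 4 with normexp, cyclic loess, quantile normalization or median scaling, with summed signals of 2133 on the knockout array against 18354 on the control array. Skeletal muscle genes had 4 of 6 lower (3 with normexp), summing to 434 on the knockout array against 1128 on the control array, and melanocyte genes 3 of 3 (2 with normexp), summing to 466 against 1727. Of 9 measured Langerhans cell and T cell genes, 2 were higher and 1 lower (3 and 0 under median scaling, 1 and 0 with normexp), summing to 16373 against 10609, and none of 5 measured fibroblast genes was 2-fold apart. These cells use the same genes of glucose and oxygen handling, and their part in the results below was not tested. In bulk tissue, fewer cells of a type and less RNA per cell cannot be told apart.

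**Figure D1:**
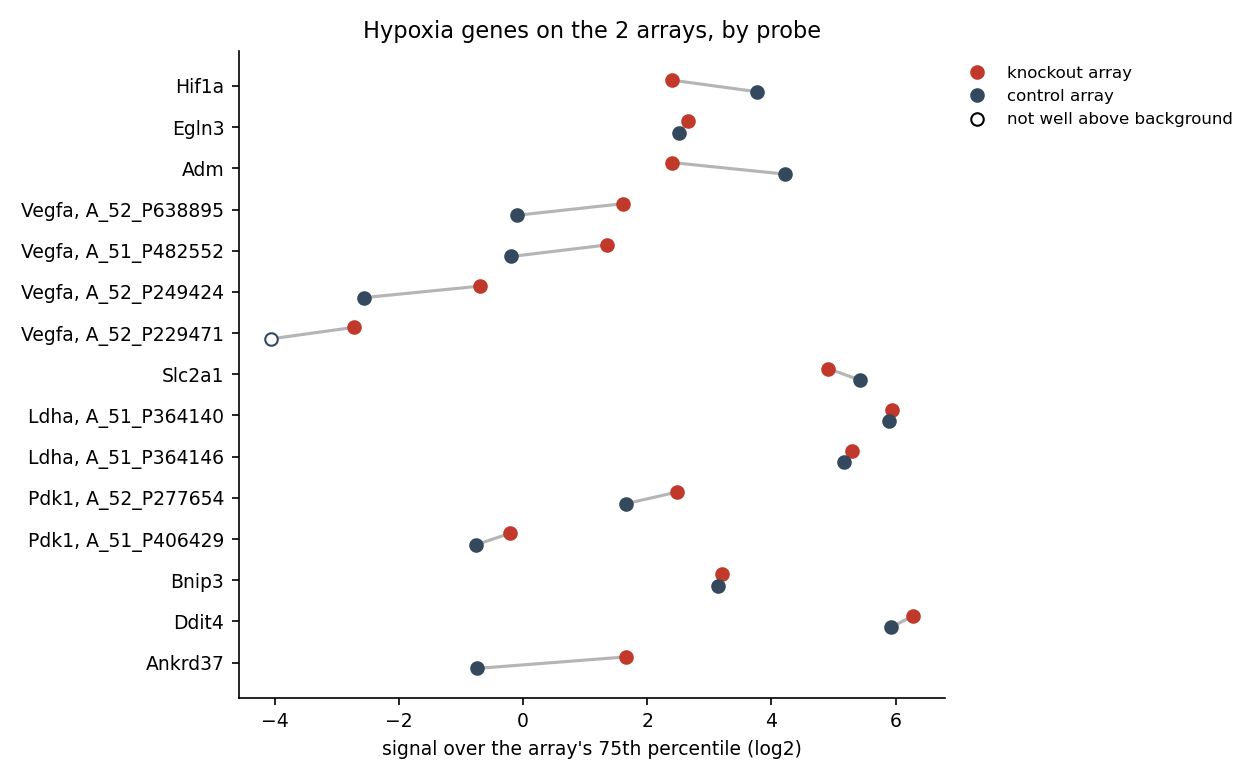
Scaled log2 signal of all 15 probes of the 10 genes (x axis, log2 over the array's 75th percentile) on the knockout array (red) and the control array (dark), with open points for signals not well above background. The 4 Vegfa probes and the Ankrd37 probe lie to the right on the knockout array, and the Hif1a and Adm probes to the left.

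Hif1a, which encodes the oxygen-labile HIF-1α subunit, had a processed signal of 1260 on the knockout array and 2790 on the control array. The scaled log2 difference was -1.37 ± 0.20, and 2.14% of all genes were as far down or further. Of 1268 genes with a like mean signal (within 0.5 log2 units of that of Hif1a), 23 were as low. RefSeq places the noncoding gene Gm15283 across part of Hif1a, and where the single probe lies is not given in the files. Egln3, the hydroxylase that HIF itself induces and that feeds back on the α subunit, had signals of 1500 on the knockout array and 1170 on the control array, a difference of 0.14 ± 0.20 that is smaller than its technical error.

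By brightest probe, most of the other oxygen-sensing genes lay within 2-fold. Of 18 listed subunits and regulators, 16 were measured, 1 was at least 2-fold higher and 1, Hif1a itself, lower, with a median of -0.04 beside -0.04 over all genes. The higher one was Siah2, a ubiquitin ligase that degrades prolyl hydroxylases, with signals of 1080 on the knockout array against 406 on the control array (1.19 ± 0.20, or 0.99 with normexp background correction). The following were chosen for their role after their values were seen. Epas1, which encodes HIF-2α, differed by 0.02 ± 0.20, with signals of 2680 on the knockout array and 2260 on the control array. Egln1, the main oxygen-sensing hydroxylase, differed by 0.58 and 0.35 in its 2 probes. Cited2, another listed regulator, was lower in all 3 measured probes, from -0.87 to -0.65, and its brightest probe was at -0.33 under median scaling. For Arnt and for Hif1an, the asparaginyl hydroxylase of the α subunit, probes disagreed: the brightest read 0.15 and 0.73, and the lowest read -0.85 in both genes. No direction is given for either. Arnt2 was well above background on the knockout array alone, with 18.3 against 11.7 on the control array. Both lie near the lowest signals well above background, 12.1 and 12.7, so its bound of 1.24-fold higher, which holds no technical error, gives no direction.

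Adm encodes adrenomedullin, a vasodilator peptide that also has antimicrobial activity on epithelia. Its probe had a signal of 1260 on the knockout array against 3800 on the control array, a difference of -1.81 ± 0.20. Of all genes, 0.975% were as far down, and 6 of 1212 genes of like signal. RefSeq places the noncoding gene Gm28863 across the full length of Adm, and the files do not say which the probe reads beyond its accession.

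Vegfa, which encodes the main growth factor of blood vessels and is made by keratinocytes, went the opposite way. Its brightest probe had a signal of 726 on the knockout array against 191 on the control array (1.71 ± 0.21), and 0.669% of all genes were as far up. Of 1687 genes of like signal, 18 were as high. It was the one member read by 4 probes, under 2 RefSeq accessions, and the others gave the same direction. A second probe was printed 10 times on each array. Its knockout spots ran from 572 to 651 with a median of 617, and its control spots from 148 to 191 with a median of 180 over the spots kept. The 2 sets of spots did not overlap, but they are repeat prints on 1 array per genotype and hold no variation between mice. How often the spots of other repeated probes separate in this way was not counted. Another probe had signals of 148 on the knockout array and 34.6 on the control array (1.88 ± 0.24). The fourth had 36.3 on the knockout array and was not well above background on the control array, at 12.3, so it was at least 2.45-fold higher. The 3 probes measured on both arrays spanned 0.33 log2 units, beside a median span of 0.29 for genes with several measured probes.

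**Figure D2:**
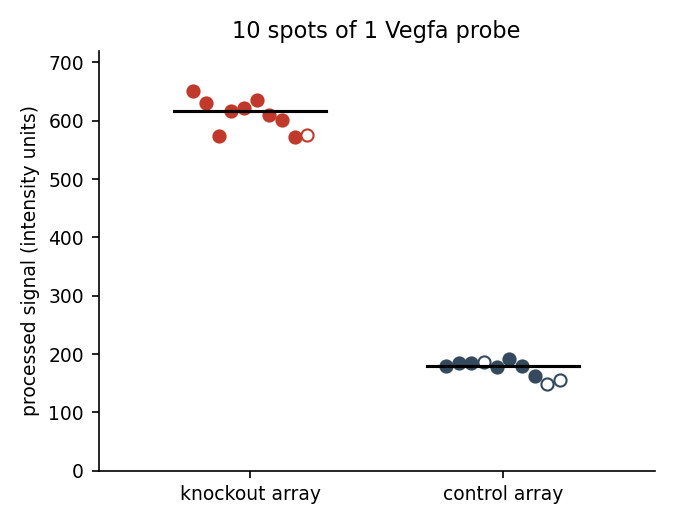
Processed signal (y axis, linear intensity units from 0) of the 10 spots of the repeated Vegfa probe on each array, with open points for spots that the scanner software marked as outliers and a line at the median of the others. Knockout spots lie between 572 and 651 and control spots between 148 and 191.

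Other secreted and vascular genes also went both ways. Of 16 listed, 14 were measured, 4 were at least 2-fold higher and 3 lower, with a median of -0.18 that was 0.14 under median scaling. Besides Vegfa, the higher genes were Apln, an endothelial peptide ligand, with 193 on the knockout array against 50.9 on the control array (1.70 ± 0.22), Edn1, the vasoconstrictor endothelin-1, with 707 against 252 (1.27 ± 0.20), and Calcrl, the receptor of adrenomedullin, with 227 against 83.8 (1.22 ± 0.21). Besides Adm, the lower genes were both partner proteins of that receptor. Ramp2 had signals of 26.1 on the knockout array and 70.9 on the control array (-1.66 ± 0.26), and Ramp3 had 195 and 343 (-1.04 ± 0.21, or -0.72 under median scaling). With normexp, Apln, Calcrl, Ramp2 and Ramp3 were all under 2-fold, at 0.86, 0.77, -0.83 and -0.77, and Edn1 was at 1.18. The receptor genes Kdr and Nrp1 were not well above background on either array.

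Vessels are a known site of Ramp2, Calcrl and Apln expression, so the endothelial markers are given beside them. Of 8 endothelial genes, 2 were measured on both arrays, with summed signals of 69.8 on the knockout array against 255 on the control array. Vwf carried this difference, with 52.0 on the knockout array against 236 on the control array (-2.40 ± 0.22, or -1.45 with normexp), while Cldn5 had 17.8 and 19.3 (-0.34 ± 0.37). Emcn was at least 5.36-fold lower and Tek at least 1.30-fold higher by bounds that hold no technical error. Pecam1, Cdh5, Kdr and Tie1 were not well above background on either array. The part of endothelial cells in the vascular differences was not tested.

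The members that carry glucose through to lactate stayed close. Slc2a1, the glucose transporter GLUT1, had signals of 7180 on the knockout array and 8800 on the control array, a difference of -0.51 ± 0.20 that 15.9% of all genes matched or passed. Ldha, which converts pyruvate to lactate, had 14700 on the knockout array and 12200 on the control array at its brighter probe, and 9350 and 7380 at the other. The knockout signals were the higher ones before scaling, by 1.20-fold and 1.27-fold, and the scaled differences were 0.05 and 0.12 with an error of 0.20. All 22 listed genes of glucose uptake and glycolysis were measured and none was 2-fold apart, with a median of 0.03 (0.35 under median scaling, where 1 passed 2-fold). By brightest probe, the largest differences in the list were those of Pfkl, a phosphofructokinase subunit, and Pfkfb3, an activator of that enzyme. Pfkl had 1480 on the knockout array against 729 on the control array (0.80 ± 0.20). Pfkfb3 had 2100 against 1230 (0.55 ± 0.20, its other probe at 0.01).

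Pdk1, the kinase that inhibits pyruvate dehydrogenase and so keeps pyruvate out of the citric acid cycle, was the member nearest to 2-fold from below. Its signals were 1330 on the knockout array against 649 on the control array at the brighter probe, and 207 against 121 at the other, and both probes read higher (0.81 ± 0.20 and 0.55 ± 0.21). It was at 1.13 under median scaling. Bnip3, which tags mitochondria for removal, had 2190 on the knockout array and 1800 on the control array, a difference of 0.06 ± 0.20. By brightest probe, no gene of the mitochondrial list was 2-fold apart among 8 measured of 11. On that measure Pdk4, a kinase of the same enzyme that is induced by fasting and glucocorticoids, had the largest difference after Pdk1. Its signals were 139 on the knockout array against 194 on the control array (-0.70 ± 0.21). The brightest Higd1a probe read 0.40, and its other probe read 1.13, past 2-fold.

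Ddit4, also called REDD1, restrains mTORC1 under hypoxia and other stresses. It was bright on both arrays, with 18600 on the knockout array and 12500 on the control array, with a scaled difference of 0.35 ± 0.20. Of all genes 19.9% were as high, and of 241 genes of like signal 20 were. Glucocorticoids and FoxO factors also induce Ddit4. In a list of 14 such genes, 12 were measured, Sgk1 was 3.20-fold higher, Fkbp5 and Depp1 differed by -3.40 and -3.33 (-2.27 and -2.07 with normexp), and the median was -0.52 (-0.21 under median scaling).

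Ankrd37, an ankyrin-repeat protein whose gene is a direct HIF-1 target in human cells, had the largest difference of the 10 genes. Its signal was 758 on the knockout array against 123 on the control array, a difference of 2.40 ± 0.21. It ranked 25 from the top of all 12408 genes, and 9 of 1631 genes of like signal were as high. It overlaps its neighbour Ufsp2 by 51 bases in RefSeq, and Ufsp2 had signals of 1480 on the knockout array and 1370 on the control array (-0.11 ± 0.20). A single probe reads Ankrd37. The 26 measured spots within 3 rows and columns of it had a median difference of -0.07 and none was 4-fold higher. None was 4-fold higher around the brightest Vegfa probe either. For the 2 lower genes, spots 4-fold lower were counted, with 0 around Adm and 1 of 29 around Hif1a. Median differences were 0.11 around the brightest Vegfa probe, -0.09 around Adm and -0.05 around Hif1a. Vegfa, Adm and Hif1a were themselves less than 4-fold apart, so these counts could miss a local fault of their size. The share of spots past 4-fold elsewhere on the arrays was not counted.

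**Figure D3:**
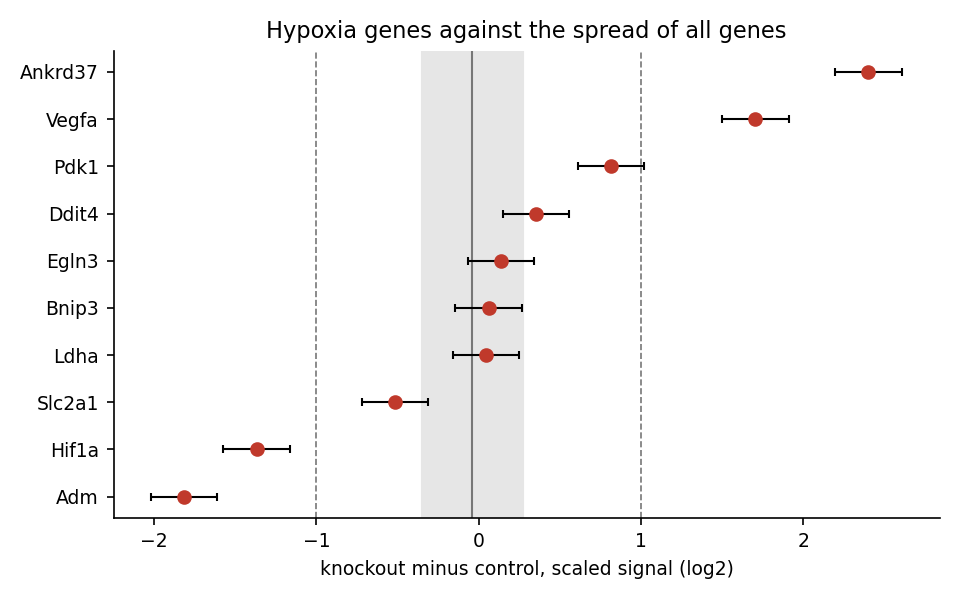
Knockout minus control difference of each of the 10 genes (x axis, log2 of scaled signal), with the error-model standard error as bars, dashed lines at 2-fold, the median of all genes as a line and their middle 50% as a grey band. Ankrd37 and Vegfa lie above 2-fold, Adm and Hif1a below it in the other direction, and Ldha, Bnip3 and Egln3 within the band.

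The remaining listed HIF targets are given without the members first. Of 11 measured growth-arrest and transcriptional targets, 1 was past 2-fold, as was 1 of 10 genes of pH, matrix and iron handling. Over all genes, 7.42% were past 2-fold in either direction, and with so few genes these counts are a description. Of 16 growth-arrest and transcriptional targets, 13 were measured, and besides Ankrd37 only Zfp395, a HIF-induced zinc finger gene in human cells, was at least 2-fold higher, with 134 on the knockout array against 56.8 on the control array (1.02 ± 0.22, or 0.56 with normexp). The list held 3 higher genes under median scaling and 1 with normexp. None was 2-fold lower, but Bhlhe40 came close, with 936 on the knockout array against 1590 on the control array (-0.99 ± 0.20). Of 12 genes of pH, matrix and iron handling, 10 were measured and 1 was past 2-fold. That was Car9, the carbonic anhydrase used as a tissue marker of hypoxia, with 56.3 on the knockout array against 116 on the control array (-1.26 ± 0.23, or -0.94 under median scaling and -0.70 with normexp). The list's median was -0.37, and -0.05 under median scaling.

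Across the 6 pathway lists without the 10 members, 73 of 85 genes were measured, 5 were at least 2-fold higher, 3 lower and 65 within 2-fold. These are 6.85% and 4.11%, beside 3.02% and 4.40% of all genes, with a median of -0.03. Median scaling gave 9 and 1, where 7.68% of all genes were higher and 2.38% lower. Normexp gave 1 and 0, where 1.47% of all genes were higher and 1.89% lower. The 4 members past 2-fold stayed past it in the same direction under both.

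**Figure D4:**
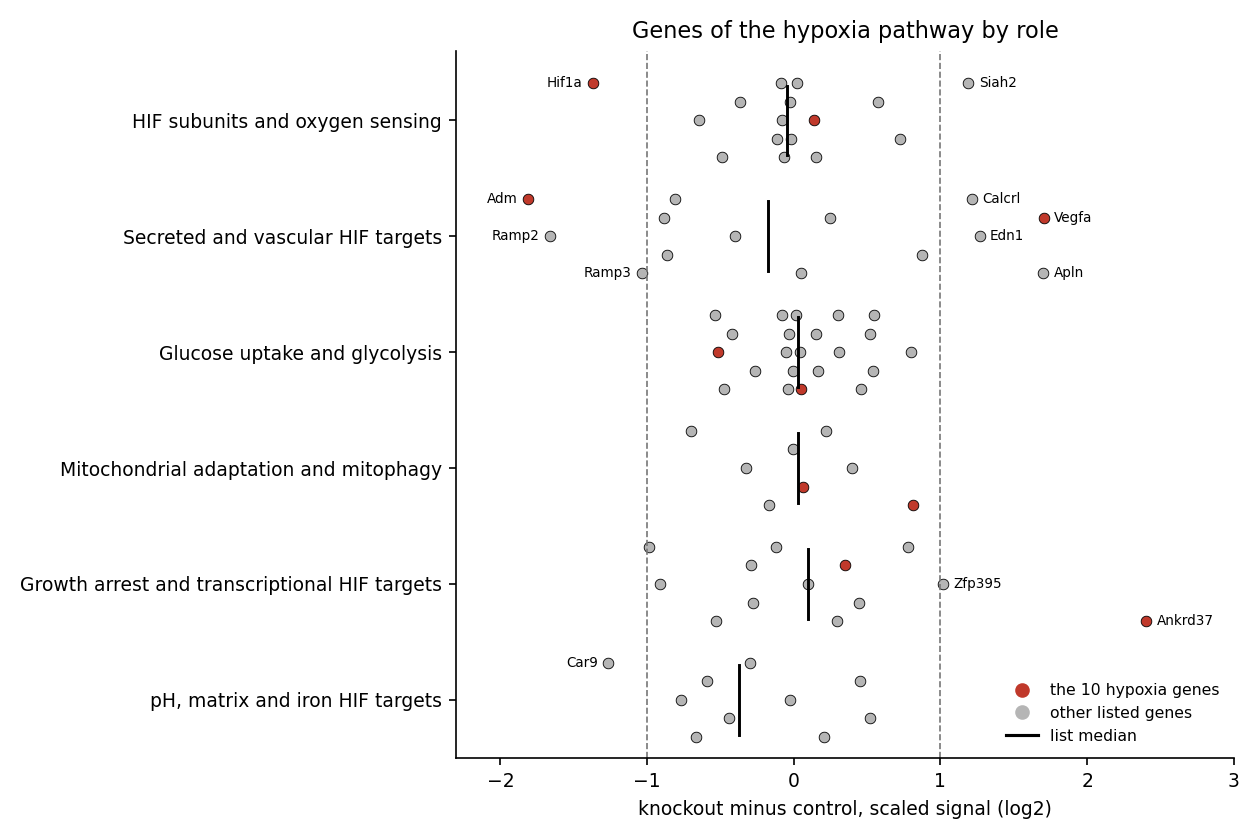
Knockout minus control difference (x axis, log2 of scaled signal) of every listed gene measured on both arrays, by role, with the 10 members in red, list medians as vertical lines and dashed lines at 2-fold. Genes past 2-fold are named, and most of them are secreted or vascular genes, 4 higher and 3 lower.

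The choice of scaling sets where zero lies. Of genes at least 2-fold apart, 40.7% were higher on the knockout array under 75th-percentile scaling and 76.4% under median scaling, which moved the median of all genes to 0.28. The members' median was 0.10, and 0.42 under median scaling. In both it was 0.14 above the median of all genes, which holds by construction because each scaling takes 1 constant per array from the log2 signals. With quantile normalization, cyclic loess and normexp it was 0.12, 0.13 and 0.19 above. Under every scaling and background correction tried, Ankrd37 stayed between 1.92 and 2.72, Vegfa between 1.44 and 2.02, Adm between -1.82 and -1.49 and Hif1a between -1.38 and -1.05.

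**Figure D5:**
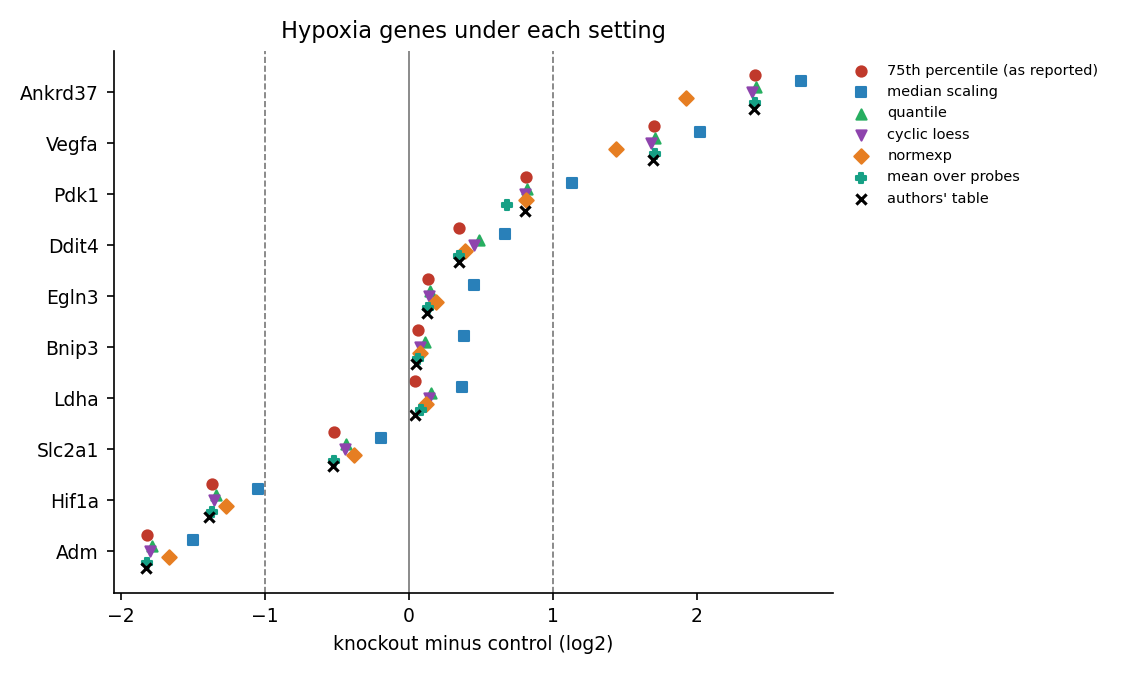
Knockout minus control difference of each of the 10 genes (x axis, log2) under 7 settings, with dashed lines at 2-fold. Median scaling moves every gene to the right, normexp draws Ankrd37 and Vegfa towards 0, and no gene past 2-fold crosses its line.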

How the data were processed

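The authors deposited 1 scanner file per array. Per the file headers, the software was Agilent Feature Extraction 10.7.3.1, the array a mouse design annotated on mm9, with both arrays on 1 slide and 1 scan day, and the deposited processed signal is an intensity that the software background-subtracted and detrended, array by array. The authors' table of log2 values was an alternative. Its 2 columns sum to 0 for every probe, with medians of -0.14 (knockout) and 0.14 (control), so it is centred per probe and holds no level. Its difference matched the scanner values with a Pearson r of 1.00 across probes and a median offset of -0.0086, which settles its scale and direction.

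Signals were divided by the 75th percentile of the non-control spots of their array and put on the log2 scale. Outlier spots were dropped and spots of a probe averaged. A probe was measured if well above background and unsaturated. Probes were named through RefSeq accessions in a GRCm38.p6 table (26662 of 41134 probes), and a gene was represented by its brightest measured probe. Genes were called at 2-fold with no test. "At least" folds set the bright value against the lowest signal well above background on the dim array, or the dim probe's own signal where that is higher. They hold no technical error. The number of arrays limits the precision.

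Named genes were the 10 members, Nfkbiz, and from each pathway list those past 2-fold or else the 2 furthest apart. Other oxygen-sensing genes, marker genes, Higd1a, Bhlhe40 and Ufsp2 were named for their role, place, probes or nearness to 2-fold after their values were seen. Members and lists were chosen with earlier results of these data known. With 2 arrays no likeness of pattern was measured. Alternatives were median scaling, quantile, cyclic loess and normexp (offset 50), all with limma 3.58.1 in R 4.3.3 except median scaling, and also the authors' table, the mean over probes, thresholds of 1.5 and 3-fold, and 2 filters on background. Normexp used median spot signals and left out non-uniform spots, chosen after seeing the data. The calling code was tested on simulated data, which checks the code and does not stand in for replicates. The rest used numpy 2.4.6 and pandas 2.3.3 in Python 3.11.15, with figures from matplotlib 3.10.9.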

Additional observations from a re-analysis of the deposited data

How the results depend on the processing

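No paired analysis was possible because there is just 1 array per genotype. The 10 members had 2 genes at least 2-fold higher and 2 lower, and the same 4 genes under quantile normalization, cyclic loess, normexp, the mean over probes, the authors' table and both other background filters. Median scaling added Pdk1 to the higher genes, as did a 1.5-fold threshold, and at 3-fold 1 lower gene was left, Adm. The members' median of 0.10 was 0.42 under median scaling. Counts over all genes, 375 higher and 546 lower, were 953 and 295 under median scaling, 182 and 235 with normexp, 1255 and 1640 with the threshold at 1.5-fold, and 105 and 188 with it at 3-fold. A looser filter, which asks for signal above background on either array, gave 571 and 831, and leaving the filter out gave 668 and 1421. The thresholds and filters change the counts by construction, and for normexp the cause was not tested. Median scaling moved all 10 members by more than their technical error and normexp moved 2, and the other settings moved none. Hif1a, Adm and Ankrd37 rest on 1 probe each.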
